A study of Homo sapiens with 12 samples.

Results

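The steady-state transcriptome of IMR32 cells that had received a control siRNA (siCtrl) is described here, from all 27514 genes of the deposited table. IMR32 is an established human neuroblastoma line with amplified MYCN. Its members are the 3 siCtrl samples, taken from the 12 samples of the series by their titles. The other samples received siRNAs against MYCN, HAND2 or both and are not compared here. The siCtrl cells were electroporated with the siRNA (Nucleofector) and kept for 72 h in RPMI-1640 growth medium with fetal calf serum before total RNA was extracted. All samples come from 1 cell line, none is untransfected, and the labels do not say whether the replicates were separate cultures, so the spread given below may be technical.

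Neuroblastoma arises from sympathetic precursors of the neural crest. These precursors are specified by a set of transcription factors that includes PHOX2A, HAND2, GATA3 and ISL1, and mature sympathetic neurons make noradrenaline from tyrosine through tyrosine hydroxylase (TH), dopa decarboxylase (DDC) and dopamine beta-hydroxylase (DBH). MYCN is a MYC-family transcription factor whose amplification marks aggressive tumours.

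Levels are given as CPM (counts per 1e+06 reads of the library) and, where genes are compared with each other, as CPM per kb of annotated exon. A gene is termed expressed at a CPM of at least 1 in each of the 3 samples, and near the floor at or under the worth of 3 reads in each. Depth, read from the smallest step between low values, was 36.3 to 57.4 M reads per sample, and the listed genes held 65.1% ± 0.74 (SD, n = 3) of the reads. At that depth 3 reads are worth 0.0523 to 0.0826 CPM, a limit that covers counting error only. A total of 12312 genes were expressed, 44.7% of the table, and 10699 genes, 38.9%, were near the floor. Of 19063 protein-coding genes 11540 (60.5%) were expressed and 4724 (24.8%) were near the floor. The median expressed coding gene had 22 CPM, and the median over all coding genes was 1.06 CPM per kb. Among 3208 genes annotated as long noncoding RNA 367 were expressed (11.4%).

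The genes with the most reads included translation factors, neighbours of MYCN on chromosome 2 and small noncoding RNAs. The gene with the most reads was EEF1A1, the translation elongation factor, at 13800.4, 12903 and 14306 CPM in replicates 1 to 3, which is 1.37% ± 0.071 of all reads. RMRP, the RNA component of the mitochondrial RNA processing endoribonuclease, followed at 10017 ± 1245 CPM, and RPPH1, the RNA of ribonuclease P, stood at rank 4 with 4914 ± 905 CPM. At rank 3 was DDX1, an RNA helicase gene next to MYCN, with 8820 (replicate 1), 8334 (replicate 2) and 8228 CPM (replicate 3). NBAS, a neighbouring gene for a Golgi-to-ER transport factor, was at rank 5 with 3980.4 ± 102 CPM. The other 10 of the 15 genes with the most reads were GAPDH, RPLP0, ACTG1, RPL4, EEF2, HSPA8, ACTB, HSP90AB1, TUBA1B and EEF1G, which encode a glycolytic enzyme, ribosomal proteins and elongation factors, chaperones, actins and a tubulin.

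The 10 highest genes held 5.43% ± 0.31 of all reads, the 100 highest 14.4% ± 0.71 and the 1000 highest 35.1% ± 0.88. DDX1, NBAS and MYCN alone held 1.35% ± 0.037, close to the share of EEF1A1. The cytosolic ribosomal proteins held 5.91% ± 0.45, and 84 of the 86 listed were expressed (97.7%, beside 60.5% of all coding genes). The exceptions RPL3L and RPL10L are paralogues known from muscle and testis. Replication-dependent histones, whose mRNAs end in a stem-loop in place of a poly(A) tail, held 1.87% ± 0.18, with 63 of 72 expressed. Ranked per kb of exon among the 24545 genes with a matched length, which leaves out RPPH1, RMRP (37945 ± 4714 CPM per kb) and RN7SL3, an RNA of the signal recognition particle (2790.4 ± 589), came first. TMSB10, which binds actin monomers, had 1824 ± 118 CPM per kb, HIST1H1B 1369 ± 172 and RPS12 1366 ± 141. Of the 15 highest genes on this scale, 8 were histones, namely HIST1H1B, HIST1H2AG, HIST1H1C, HIST1H2BK, HIST1H3B, HIST1H4C, HIST1H2AE and HIST2H3C. HIST2H3C has a near-identical copy, HIST2H3A, with which reads may be shared, so its level is uncertain. The others were EEF1A1, GAPDH and RPL41. This ranking used the union of all annotated exons as length, and its order under other lengths is not given. Reads shared with copies of a gene were not assessed for RN7SL3 or any other gene of the ranking.

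**Figure D1:**
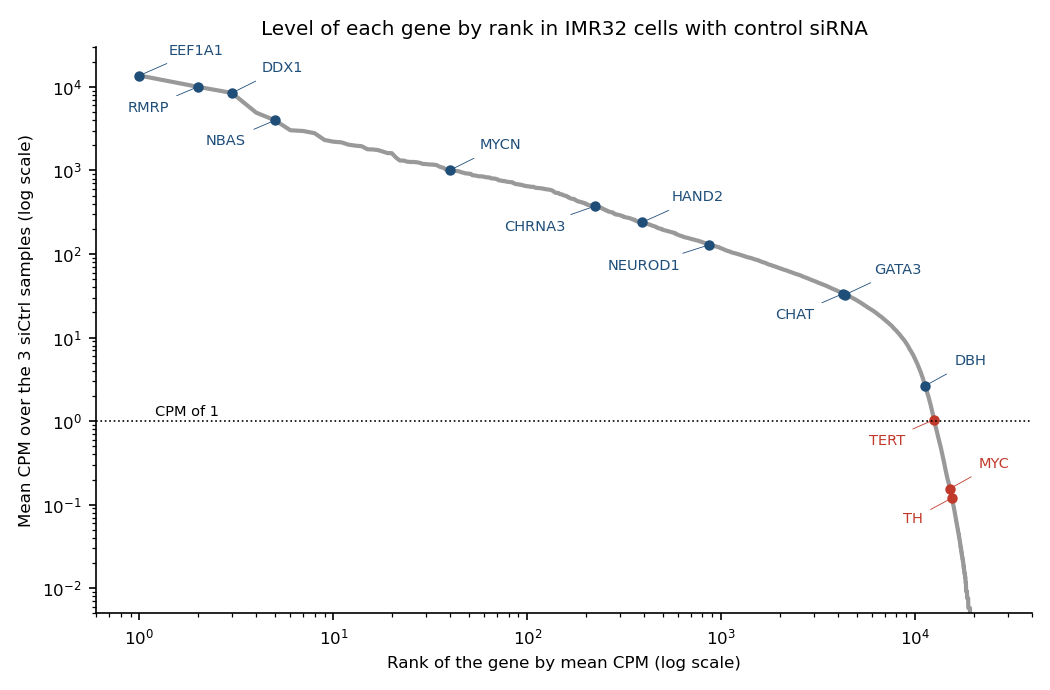
Mean CPM of each gene over the 3 siCtrl samples (log scale) against its rank (log scale), with 14 genes of the text marked and a dotted line at a CPM of 1. MYCN stands at rank 40 and DDX1 at rank 3, while TERT (red) lies on the line at a mean of 1.04 CPM and MYC and TH (red) lie below it.

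MYCN itself had 964, 1049 and 1015 CPM in the 3 samples, rank 40 by reads. Its gene body spans bases 16080560 to 16087130 of chromosome 2 in hg19 and is read from the plus strand. Per kb of exon it had 366 ± 15.5 and rank 68 of 24545 genes with an annotated length. The coefficient of variation over the 3 samples was 4.22%. Along the same arm FAM84A had 685 ± 47.7 CPM, while FAM49A, on the far side of MYCN, had 3.82 ± 0.49 (both chosen after their values were seen). The antisense gene MYCNOS overlaps MYCN and had 18.4 ± 1.23 CPM. Strand use in the counting is not given in the sources used here, so reads of the pair could not be separated.

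The 4 markers named for these cells were MYCN, HAND2, GATA3 and DBH. HAND2, a basic helix-loop-helix factor of sympathetic precursors, had 224, 241 and 254 CPM. GATA3, a zinc finger factor of the same lineage, had 33.8, 35.1 and 29.1 CPM. DBH, the enzyme that makes noradrenaline, had 2.51, 2.37 and 3.07 CPM, rank 11256 of the table. All 4 passed the limit of 1 CPM in every sample, DBH by the smallest margin. DBH overlaps DBH-AS1 on the other strand.

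Of 33 sympathetic transcription factors 29 were expressed, 3 lay between the limits and 1 was near the floor, against 60.5% expressed among all coding genes. Their median was 7.55 CPM per kb, and that of all coding genes 1.06. MYCN was the highest of them. This list and the others below were chosen with earlier results of these data known, so their shares are given as a description only. TLX2, a homeodomain factor of neural crest derivatives, had 64.2, 69.4 and 74.0 CPM per kb, and HAND2 stood beside it at 62.1, 66.9 and 70.5. The ranges of TLX2 and HAND2 overlapped. PHOX2A (38.4 ± 2.98), SOX11 (33.0 ± 3.06) and MEIS1 (31.4 ± 1.71 CPM per kb) came next, and SOX4 had 23.1 ± 1.88. HAND2 lay above PHOX2A in every sample, and the ranges of PHOX2A, SOX11 and MEIS1 ran into each other.

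Further down this order, GATA3 (9.62 ± 0.93 CPM per kb) and ISL1 (7.55 ± 0.33), a LIM homeodomain factor, were within the middle of the list. GATA2, the paralogue of GATA3, had 0.56 ± 0.064. LMO1, an adaptor of transcription complexes and a neuroblastoma risk gene, had 1.27, 0.776 and 0.488 CPM and so missed the limit in all but replicate 1. INSM2 and LMO3 also lay under 1 CPM. TFAP2B, an AP-2 factor of sympathetic neurons, had 0.0551 CPM in replicate 1 and was listed at 0 in both others. The AP-2 family had no expressed member: TFAP2A, its highest, had 1.06, 1.12 and 0.953 CPM. HAND2 overlaps HAND2-AS1 (120.0 ± 7.18 CPM), PHOX2A overlaps INPPL1, GATA2 overlaps GATA2-AS1 and ISL1 overlaps LOC642366 on the other strand, with the uncertainty given for MYCN.

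**Figure D2:**
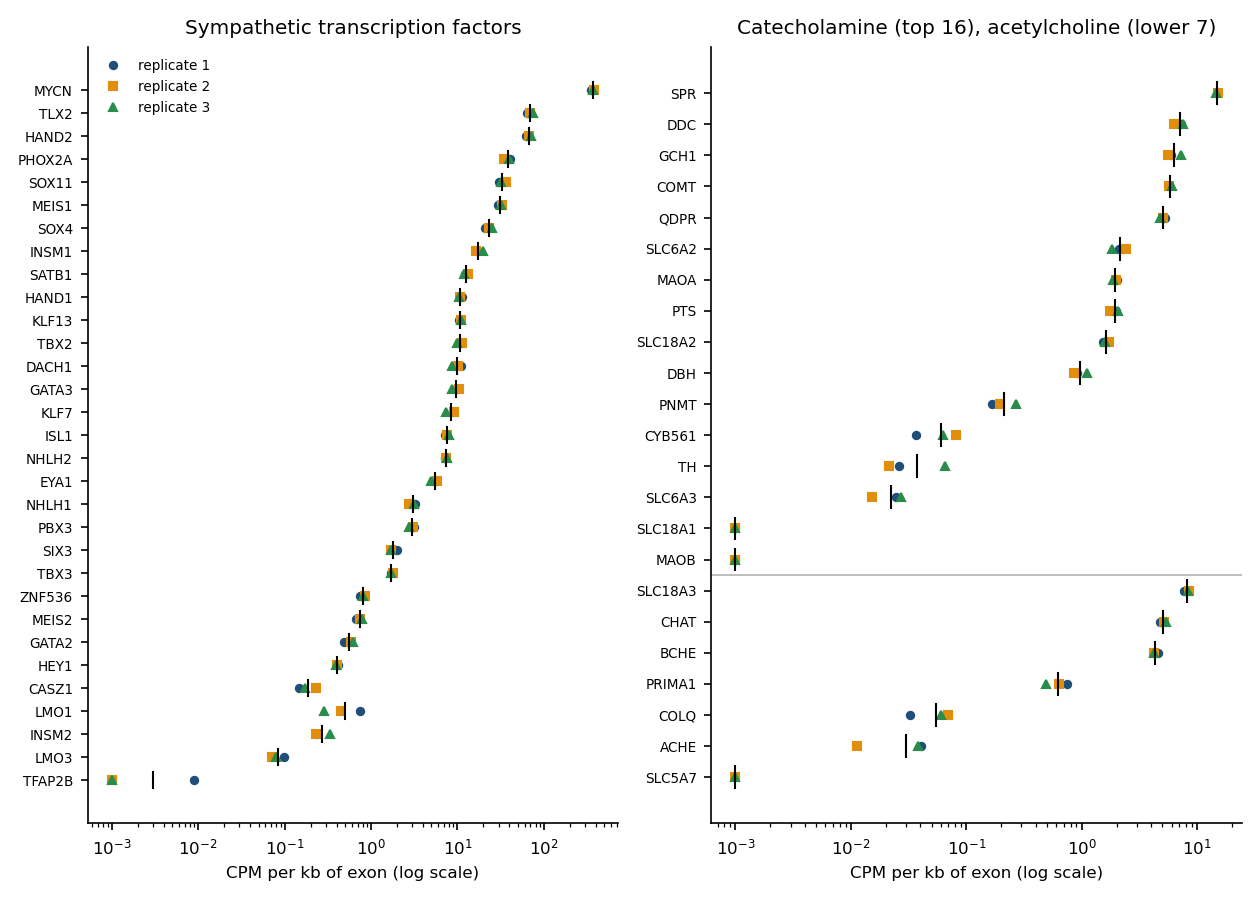
CPM per kb of exon (log scale) of 31 sympathetic transcription factors (left) and of genes of catecholamine and acetylcholine handling (right) in each siCtrl sample, with a bar at the mean; values under 0.001 are drawn at 0.001. MYCN at 366 leads on the left, and on the right TH, MAOB and SLC18A1 sit far below DDC, while CHAT and SLC18A3 exceed DBH.

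Factors that mark the mesenchymal type of neuroblastoma cell were expressed in 16 of 29 cases, 55.2% beside the 60.5% of all coding genes, with a median of 0.263 CPM per kb. ID1, an inhibitor of helix-loop-helix factors, had 30.3 ± 2.58 CPM per kb, TWIST1 29.5 ± 1.94, ZEB1 14.2 ± 0.45 and SNAI1 11.9 ± 0.64. The last 3 repress epithelial genes. PRRX1, a homeodomain factor of that cell state, was listed at 0 in all 3 samples, and its paralogue PRRX2 had 9.02 ± 0.54 CPM. WWTR1, RUNX1 and FOSL1 had 0.0799, 0.429 and 0.212 CPM, and YAP1, the paralogue of WWTR1, had 1.84 ± 0.25.

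Master factors of other lineages were expressed in 7 of 42 cases (16.7%), and 24 were near the floor, against 60.5% and 24.8% of all coding genes. NEUROD1, a helix-loop-helix factor of neuronal and endocrine cells, had 120.4, 130.3 and 137 CPM, and NEUROG2, a proneural factor, had 39.2, 43.4 and 50.5. Per kb they stood at 15.7 ± 0.99 and 19.3 ± 2.5. PAX5, the B-cell factor, had 20.4, 22.1 and 17.4 CPM, without any expressed gene among 18 blood cell markers. MITF, MYOG and PAX6 had means between 1.04 and 4.08 CPM. SPI1, FOXA2 and CDX2, of the myeloid, endodermal and intestinal lineages, were among 14 listed at 0.

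Of 152 markers of 12 other cell types 23 were expressed, 50 lay between the limits and 79 were near the floor. Among all coding genes 60.5% were expressed and 24.8% near the floor. None was expressed of 18 for blood, 12 for endothelium, 15 for epithelium and 10 for pluripotent cells. Their summed levels were 1.21 to 1.97 CPM for blood, 2.34 to 2.56 for endothelium, 0.909 to 0.976 for epithelium and 0.766 to 0.964 for pluripotent cells. CDH1, KRT5, KRT14 and KRT19 were listed at 0, as were CD3E, MS4A1 and HBB. Of 13 Schwann cell genes 3 were expressed, namely NGFR (48.1 ± 4.09 CPM), PMP22 (26.8 ± 2.02) and PRX (2.39 ± 0.29), whereas SOX10 had 0.266 ± 0.069, S100B 0.20 ± 0.072 and CDH19 was listed at 0. Of 14 fibroblast genes 6 were expressed (42.9%). PDGFRA reached 104 ± 3.15 CPM, FN1 21.9 ± 2.34, THY1 14.0 ± 1.01 and COL1A1 7.90 ± 1.01, while DCN, FAP and POSTN were listed at 0. PMEL (12.5 ± 0.79 CPM), TYRP1, MITF and OCA2 were the 4 expressed of 8 melanocyte genes, and TYR was listed at 0. In bulk samples few cells of a type and little RNA per cell cannot be told apart.

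Among the enzymes and carriers of catecholamine metabolism 10 of 16 were expressed, 62.5% and so near the 60.5% of all coding genes, and the median was 1.77 CPM per kb. Tyrosine hydroxylase (TH), the rate-limiting enzyme, had 0.0826, 0.0685 and 0.209 CPM, which is the worth of 3 reads in each of replicates 1 and 2. The next enzyme, DDC, had 22.2, 19.6 and 23.2 CPM, and GCH1, which starts the synthesis of the hydroxylase cofactor, had 18.4 ± 2.59. SPR, of the same cofactor pathway, had the highest level per kb in the list at 14.8 ± 0.27.

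SLC6A2, the noradrenaline transporter, had 17.1 ± 2.41 CPM, and SLC6A3, the dopamine transporter, was under 1 CPM. SLC18A2, the neuronal vesicular monoamine transporter, had 6.69 ± 0.41 CPM, while its paralogue SLC18A1 was listed at 0 in every sample. With SLC18A1 set at 3 reads in each library, SLC18A2 was at least 73.0-fold higher per kb of all exons. That bound was 55.2-fold with the longest transcript and 53.9-fold with the canonical one. MAOA had 26.0, 26.0 and 24.4 CPM and MAOB was listed at 0, a ratio of at least 70.1-fold per kb, or at least 206-fold with the canonical transcript and 315-fold without length. PNMT, which makes adrenaline, had 0.245 ± 0.062 CPM.

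Of 7 genes of acetylcholine handling 4 were expressed (57.1%), near the 60.5% of all coding genes, with a median of 0.623 CPM per kb. The genes of synthesis and storage were higher than TH and DBH, but not than every catecholamine gene. CHAT, choline acetyltransferase, had 31.4, 33.8 and 35.5 CPM, and SLC18A3, the vesicular acetylcholine transporter, had 18.5, 20.6 and 20.1. Per kb these were 5.09 ± 0.32 and 8.19 ± 0.45, against 0.965 ± 0.13 for DBH. On that scale DDC, at 6.36 to 7.54, lay above CHAT and below SLC18A3 in every sample, and SPR lay above both. SLC18A3 lies within CHAT on the same strand, so the pair may share reads. SLC5A7, the choline transporter, was listed at 0, and ACHE, acetylcholinesterase, had 0.123 ± 0.067 CPM. BCHE, a related esterase, had 13.3 ± 0.59 CPM, or 4.34 ± 0.19 per kb.

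Of 27 neuronal structure genes 27 were expressed, beside 60.5% of all coding genes, with a median of 7.63 CPM per kb. UCHL1, a neuronal ubiquitin hydrolase, had 97.7 ± 3.84 CPM per kb, STMN1, which destabilises microtubules, 61.4 ± 4.6 and CRMP1, of growth cone signalling, 46.6 ± 0.15. MAP1B, which binds microtubules, had 567, 568 and 393 CPM, with replicate 3 apart from both others. The lowest was STMN4 at 1.30 ± 0.066 CPM. Synaptic vesicle genes were expressed in 24 of 28 cases (85.7%), led by CPLX2 (21.2 ± 1.01 CPM per kb) and SYT1 (19.6 ± 1.14), of the release machinery. Granins and peptides were expressed in 10 of 26 (38.5%). Galanin (GAL) had 60.1, 57.2 and 59.4 CPM, CHGA 99.5 ± 5.04 and SCG3 99.2 ± 12.1, whereas NPY, a co-transmitter of sympathetic neurons, had 0.110, 0.114 and 0.314, and SST, CCK and TAC1 were listed at 0.

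Receptors for growth factors were expressed at about the rate of coding genes, 35 of 58 receptor tyrosine kinases. PDGFRA, a platelet-derived growth factor receptor, had 10.9 ± 0.33 CPM per kb, PTK7 10.4 ± 0.093 and RYK 6.40 ± 0.24, each with samples above those of the next. PTK7 and RYK are co-receptors of Wnt signalling. ALK, which is mutated in part of neuroblastomas, had 36.8, 39.7 and 37.9 CPM, or 5.16 ± 0.20 per kb, and overlapped DDR2 and IGF1R in that order. Of the neurotrophin receptors, NTRK3 had 1.58 ± 0.17 CPM and NTRK2, the receptor of BDNF, 0.0551, 0.0228 and 0.157. RET had 1.60 ± 0.17 CPM beside 158 ± 12.4 for GFRA2, a co-receptor of the GDNF family. AXL had 0.0922 ± 0.035 CPM, and MET had 0.0456 CPM in replicate 2 and was listed at 0 in both others.

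Among receptors for transmitters and peptides, few members carried most of the reads. Of 58 peptide receptors 10 were expressed (17.2%, beside 60.5% of all coding genes). SSTR2, the somatostatin receptor used for tumour imaging, had 319, 311 and 325 CPM, while SSTR1 and SSTR4 were listed at 0. CCKAR, a cholecystokinin receptor, had 17.1 ± 0.32 CPM per kb and ADCYAP1R1, the PACAP receptor, 12.1 ± 1.55, both below the 40.5 ± 0.88 of SSTR2 in every sample. Of 35 amine receptors 7 were expressed (20%), with ADRA2C highest at 12.3 ± 1.29 CPM, and DRD1 was 1 of 11 listed at 0. Of 48 ligand-gated channel subunits 19 were expressed (39.6%). CHRNA3, the nicotinic subunit of autonomic ganglia, had 371, 380 and 371 CPM, and its clustered partners CHRNA5 and CHRNB4 had 59.1 ± 0.81 and 50.1 ± 1.66. CHRNA3 and CHRNA5 overlap at their ends on opposite strands. Per kb CHRNA3 stood 4.81-fold ± 0.0072 above CHRNA5, and 7.60-fold with the longest or canonical transcript. HTR3A, a serotonin-gated channel, had 29.2 ± 1.25 CPM.

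Developmental receptors were expressed in 25 of 35 cases (71.4%), beside 60.5% of all coding genes. TGFBR1 had 138, 145 and 133 CPM, but TGFBR2, the partner that binds the TGF-beta ligand, had 0.193, 0.0913 and 0.174. ACVR2B (10.6 ± 1.04 CPM per kb), FZD2 (10.2 ± 0.41) and LRP6 (10.0 ± 0.87), of activin and Wnt signalling, were next. NOTCH3 (0.802 ± 0.16 CPM per kb) and NOTCH1 (0.611 ± 0.057) overlapped, and NOTCH2 had 0.605 ± 0.18 CPM. Nuclear receptors were expressed in 27 of 48 cases (56.25%), near the 60.5% of all coding genes. RXRB (6.99 ± 0.56 CPM per kb), NR1D2 (6.82 ± 0.43) and RARA (5.85 ± 0.48), a retinoic acid receptor, were the highest 3.

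Innate sensors were expressed less often than coding genes as a whole (60.5%). Of 33 sensors and inflammasome genes 6 were expressed (18.2%), and 12 were listed at 0, among them TMEM173 (STING), TLR3, IFIH1, CASP1 and RIPK3. MAVS, the mitochondrial adaptor, had 43.0 ± 4.78 CPM and EIF2AK2, the double-stranded RNA kinase, 39.5 ± 4.27, while the DNA sensor MB21D1 (cGAS) had 0.0275, 0.137 and 0 CPM. CASP8, the initiator caspase of death receptors, had 0.138 and 0.160 CPM in replicates 1 and 2 and was listed at 0 in replicate 3. TNFRSF10B, a TRAIL receptor, had 72.0 ± 1.33 CPM, and its paralogue TNFRSF10A was listed at 0. Of 38 cytokine and death receptors 17 were expressed (44.7%), and CNTFR, a receptor of ciliary neurotrophic factor, had 15 ± 1.44 CPM per kb.

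**Figure D3:**
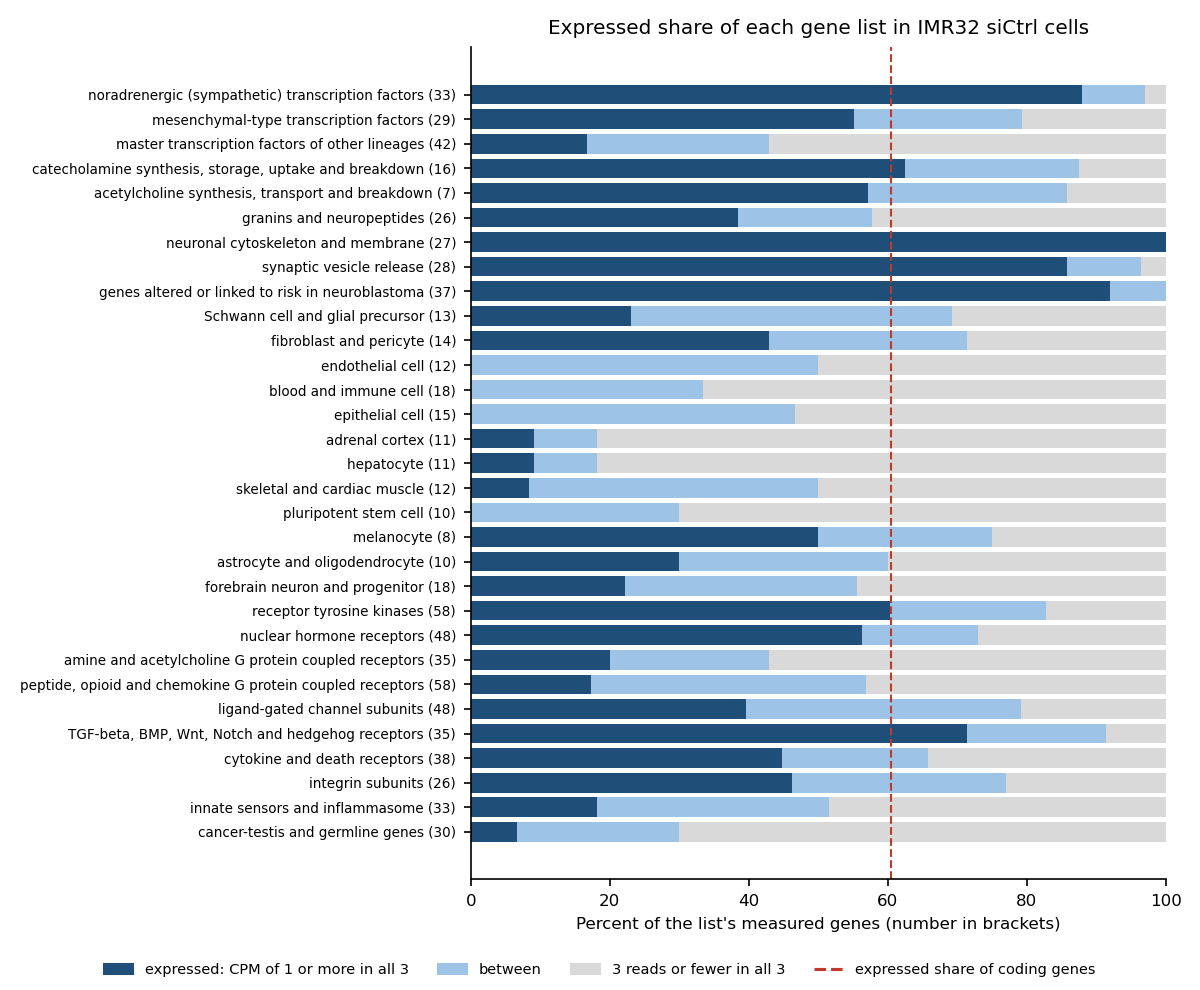
Percent of measured genes of each list that were expressed (dark), between the limits (light) or near the floor (grey), with the number of genes in brackets; the dashed line is the 60.5% of all coding genes. Neuronal structure is expressed in full, and endothelial, blood, epithelial and pluripotency lists have no dark bar.

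Neuroblastoma genes were expressed in 34 of 37 cases (91.9%, beside 60.5% of all coding genes). ODC1, an enzyme of polyamine synthesis and a MYCN target on the same chromosome arm, had 375 ± 11.2 CPM. CCND1, the D-type cyclin, had 289, 316 and 308, MDM2 203 ± 3.48, ATRX 97.9 ± 8.03, and AURKA, a kinase that stabilises MYCN, 52.4 ± 0.36. TERT, the telomerase catalytic subunit, had 0.798, 1.21 and 1.12 CPM, so only replicate 1 lay under the limit. LMO1 and CASP8 were the other two not expressed. Of 30 cancer-testis genes PAGE1 (13.8 ± 0.86 CPM) and SSX1 (1.53 ± 0.11) were expressed (6.67%), and 19 were listed at 0.

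Which paralogue carried a family's expression was examined in 98 families by CPM per kb. In 89 the leading member was expressed and all its samples lay above all those of the runner-up. In 3 families (AP-2, SOX B and SOX E factors) the leader was not expressed. In 75 of the 89 the same gene led whether length was taken from all exons, the longest transcript or the canonical transcript, or not used at all. In 24 of these the leader held 90% or more. The size of a ratio depended on the length used: of 90 pairs of leader and runner-up 57 moved by over 1.5 times under the longest transcript, the canonical transcript or no length. The SD beside a ratio covers only the spread between samples.

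MYCN held 99.8% ± 0.0094 of the MYC family. MYCL had 3.99, 4.56 and 4.06 CPM and MYC had 0.275, 0.0685 and 0.122. MYCN stood 433-fold ± 18.3 above MYCL per kb, and 240-fold without length. CCND1 stood 23.4-fold ± 1.77 above CCND3, but 10.9-fold with the longest and 9.26-fold with the canonical transcript, and CCND2 was listed at 0. HMGA1, a chromatin protein, had 224, 223 and 236 CPM with HMGA2 listed at 0, so that HMGA1 was at least 17599.5-fold higher per kb with HMGA2 set at 3 reads in each library. That bound was 10188-fold with the longest transcript, 5827-fold with the canonical one and 2718-fold without length.

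Other choices of a similar kind concerned adhesion, RNA binding, metabolism and chromatin. CDH2, N-cadherin, held 97.1% ± 0.40 of the classical cadherins, and CDH1 was listed at 0. LIN28B, a repressor of let-7 processing, had 68.8, 74.4 and 77.4 CPM and LIN28A 0.0275, 0.160 and 0.0349. IGF2BP1 stood 3.77-fold ± 0.64 above IGF2BP3, and 2.07-fold with the longest or canonical transcript. LDHB had 423 ± 7.33 CPM per kb and LDHA 103 ± 5.49, a ratio of 4.13 ± 0.17, or 2.04 without length. SMARCA4 stood 11.7-fold ± 0.48 above SMARCA2, the alternative BAF complex ATPase, and HDAC2 3.42-fold ± 0.03 above HDAC3, with 2.26-fold for the canonical transcript and 11.4-fold without length. GATA3 stood 17.3-fold ± 3.19 above GATA2 and HAND2 6.16-fold ± 0.61 above HAND1. The ratio of HAND2 to HAND1 was 13.0 without length. Each of these ratios was above 1 in all 3 samples.

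**Figure D4:**
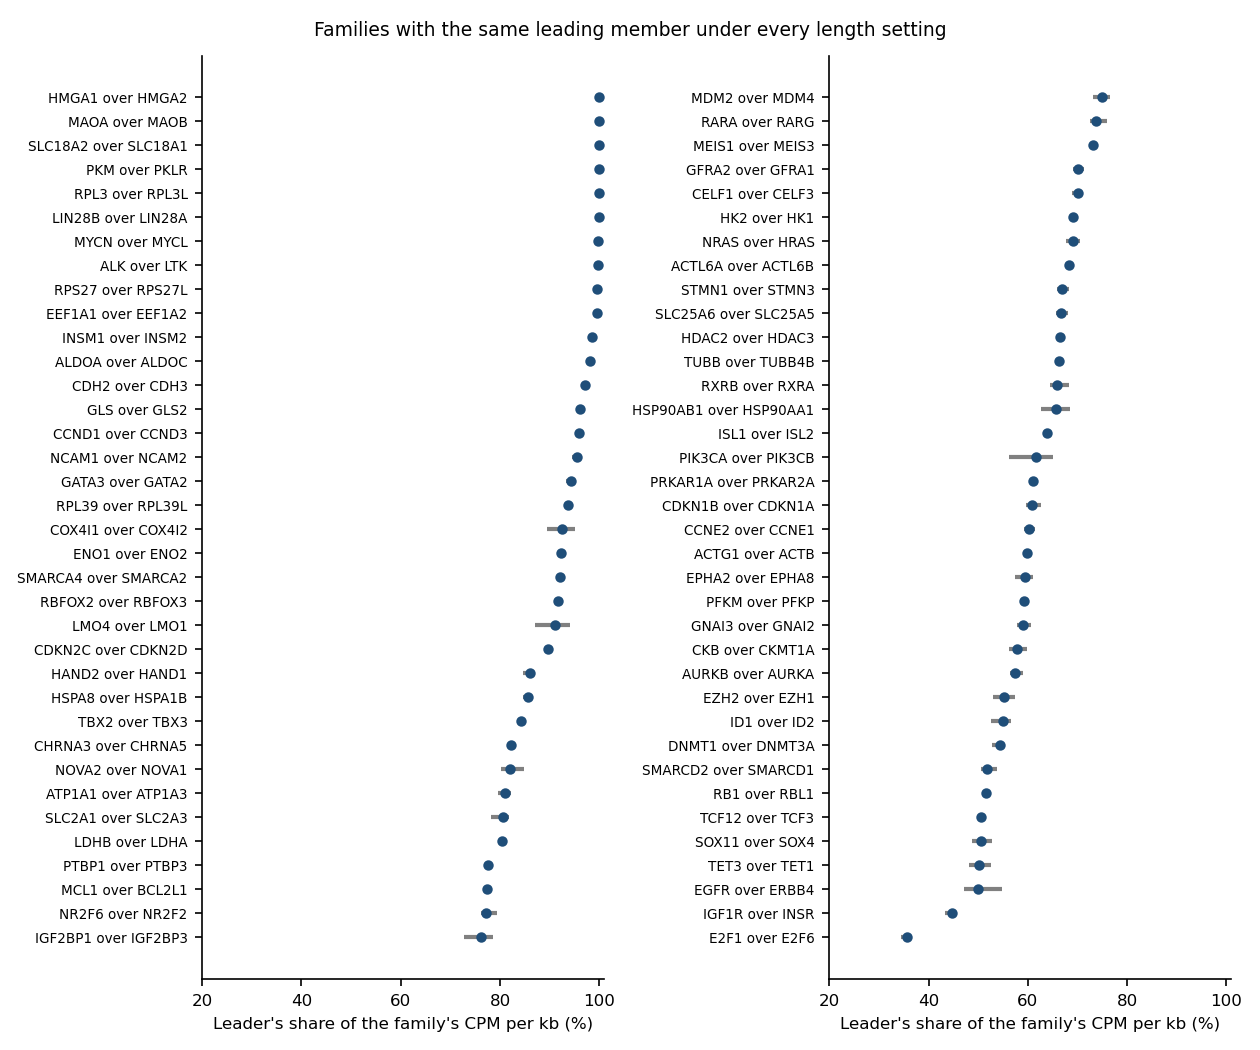
Share of the family's summed CPM per kb held by the leading member in 72 of the 75 families whose leader was the same under every length setting; points are means and lines the range over the 3 siCtrl samples. The shares run from 35.7% for E2F1 to 100% for HMGA1, MAOA and SLC18A2.

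Several gene classes had few or no expressed members, against 60.5% of all coding genes. None of 393 olfactory receptors, 94 keratin-associated proteins and 38 beta defensins was expressed. Of 55 keratins 1 was expressed, KRT10, at 2.54 ± 0.16 CPM. The genes named in this paragraph were chosen after their values were seen. Chemokines had 1 of 42 expressed (CXCL12, 2.52 ± 0.48 CPM), interleukins 2 of 38 (IL11 and IL17D), and claudins 2 of 24 (CLDN12 and CLDN15). HOX genes were expressed in 7 of 39 cases, all in the C and D clusters, with HOXD8 highest at 11.2 ± 1.02 CPM and then HOXD3 (6.87 ± 0.74) and HOXC9 (6.63 ± 0.36). At the other end, all 78 mitochondrial ribosomal proteins were expressed, the lowest at 9.02 CPM, and zinc finger genes named ZNF were in 452 of 531 cases.

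A RefSeq window of 250 bases before to 50 after the start (GRCh38.p14) was matched by symbol for 14571 of the 19063 coding genes, taking the first listed start. The median ratio of observed to expected CpG was 0.854 for expressed genes and 0.281 for genes near the floor, and median GC content was 66 and 53%. The share of genes expressed was higher at higher ratios, from 12.7% of 1782 genes below 0.2 to 85.8% of 6621 genes at 0.8 and over. The motif TATAAA, on either strand, was in 4.75% of expressed, 20.8% of near-floor and 9.33% of all windows. GGGCGG was in 72.2, 30.2 and 59.8%, and CACGTG, the E-box that MYC-family proteins bind, in 10.5, 5.95 and 8.90%. CCAAT was in 37.2% of both groups and 36.3% of all. The motif AGATAA, which GATA factors can bind, was in 4.48% of expressed, 15.2% of near-floor and 7.55% of all windows. The motif CACGTG was in 12.7% of the 1000 coding genes with the most reads. Motifs can overlap each other, and a match is not a bound site. CACGTG and GGGCGG contain CG, TATAAA and AGATAA are rich in A and T, and the groups differ in GC and CpG content. The motif shares were not adjusted for base composition, and binding by MYC-family or GATA factors was not tested. They are given as a description.

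**Figure D5:**
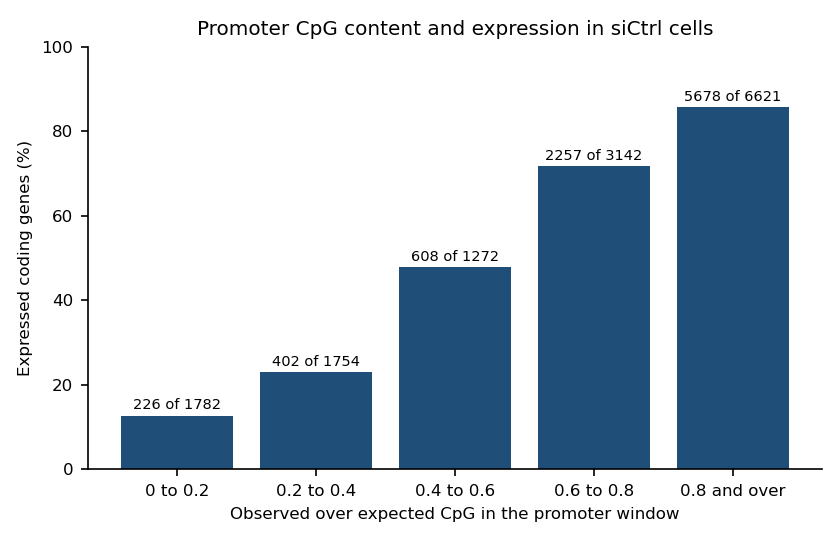
Percent of coding genes expressed in the siCtrl samples (vertical axis) by the ratio of observed to expected CpG in the promoter window (horizontal axis), with the number expressed of the number in each bar above it. The share goes from 12.7% in the lowest class to 85.8% in the highest.

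To show these windows, the 100 bases before the start are given 5′ to 3′ for 4 expressed genes named above (MYCN, HAND2, PHOX2A and CHRNA3) and for 2 cell type markers listed at 0 (ACTC1 of muscle and POSTN of fibroblasts, chosen because they hold TATAAA). Capitals mark matches, on either strand, to any motif named above. The stretches, in RefSeq's GRCh38.p14, are MYCN chr2:15940450-15940549 (plus strand), HAND2 chr4:173530230-173530329 (minus strand), PHOX2A chr11:72244177-72244276 (minus strand), CHRNA3 chr15:78620997-78621096 (minus strand), ACTC1 chr15:34795550-34795649 (minus strand) and POSTN chr13:37598769-37598868 (minus strand).
MYCN: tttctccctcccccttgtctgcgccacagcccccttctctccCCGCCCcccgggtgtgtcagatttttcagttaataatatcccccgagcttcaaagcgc
HAND2: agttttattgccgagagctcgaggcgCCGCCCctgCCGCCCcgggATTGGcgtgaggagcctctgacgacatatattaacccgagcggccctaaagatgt
PHOX2A: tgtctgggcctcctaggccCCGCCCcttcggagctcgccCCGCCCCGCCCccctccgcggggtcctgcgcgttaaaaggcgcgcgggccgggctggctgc
CHRNA3: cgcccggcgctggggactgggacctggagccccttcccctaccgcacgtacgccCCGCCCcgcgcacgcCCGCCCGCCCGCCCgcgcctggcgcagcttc
ACTC1: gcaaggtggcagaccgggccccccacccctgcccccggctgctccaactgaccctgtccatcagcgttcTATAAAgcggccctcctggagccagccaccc
POSTN: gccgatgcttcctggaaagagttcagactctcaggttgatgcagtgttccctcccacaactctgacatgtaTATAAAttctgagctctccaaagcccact
Each of the 4 expressed genes has at least 1 GGGCGG match in this stretch, always in the reverse orientation, and HAND2 also has a CCAAT match. Neither ACTC1 nor POSTN, both chosen for TATAAA, has a GGGCGG match there. These genes are examples, so no difference between expressed and unexpressed genes can be read from them. Over the full window the CpG ratio was 0.546 for MYCN, 0.797 for HAND2, 0.842 for PHOX2A and 0.796 for CHRNA3, and 0.487 for ACTC1 and 0.264 for POSTN.

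The median spread between the 3 samples was lower at higher levels up to 20 CPM and changed little above that. The median coefficient of variation was 4.70% for 1213 genes of at least 100 CPM, 4.86% from 20 to 100, 6.61% from 5 to 20 and 11.5% for 2353 genes from 1 to 5 CPM. Log2 levels of each pair of samples correlated at 0.996 (Pearson's r, across 12539 genes, which are not independent replicates and share the library scale). The 5 genes of largest spread at a mean of at least 5 CPM were CDR1 (14.6, 7.17 and 3.52 CPM), RNF5 (3.81, 4.34 and 8.88), SNORA50C (12.3, 4.34 and 8.47), RIPOR1 (14.6, 9.49 and 6.83) and SNORA68 (33.4, 15.6 and 23.8). RNF5 overlaps RNF5P1, so their reads may be split. Of the 100 most variable genes at that level 76 were highest in replicate 1, 63 were lowest in replicate 3 and 15 were annotated as snoRNAs. The same shares over all 10186 genes at that level were not computed, so whether these counts are particular to the most variable genes is not known.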

How the data were processed

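RNA of 12 IMR32 samples in 4 groups of 3 was sequenced, and only the 3 siCtrl samples were used. Per the file headers the deposited values are CPM per gene, normalised by the authors. Per the submitters' processing notes STAR 2.5.1, Partek and hg19 (GRCh37) were used. The counting tool, strand use, annotation and any filter are not given in the sources used here. A constant of 0.0001 was subtracted from each value. Depth was read from the worth of 1 read, and 89.4 to 89.7% of values below 20 reads were whole within 0.05 reads, so the values were not treated as counts. Levels per kb used the union of exons in GENCODE release 44 on GRCh37, matched for 24545 genes. No test was made, since 1 group is described, and values are means ± SD of 3 samples. No sample held the same values as another.

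Named genes were the 15 highest by CPM and by CPM per kb, genes of the lists (of a long list the highest 3 to 8 and those near the floor), leaders and runners-up of families, and the 5 of largest spread at a mean CPM of 5 or more. Some genes are not reported here, though counts over lists and families include them. Members, lists and families were chosen with earlier results of these data known. Alternatives were other CPM minimums, lengths, scalings and leaving out each replicate. Only the choice of family leaders was tested on simulated data. The calculations used Python 3.11.15, numpy 2.4.6, pandas 2.3.3 and matplotlib 3.10.9.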

Additional observations from a re-analysis of the deposited data

How the results depend on the processing

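The count of expressed genes, 12312, ranged from 9824 (at least 1 CPM per kb) to 13147 (at least 0.5 CPM), and from 12363 to 12410 when each replicate was left out. The 100 highest genes held 14.4% of all reads, 22.1% of the reads of listed genes, and 14.2 to 14.8% when a replicate was left out. The number of families led by 1 member, 89, ranged from 88 to 94. Of 90 leader and runner-up pairs 15 reversed in order under some setting, 1 of them by leaving out a replicate. The log2 ratio of leader to runner-up reversed as follows. Without any length it was -1.08 for TEAD2 over TEAD1, -0.52 for EPHB3 over EPHB2, -0.017 for NOTCH3 over NOTCH1, -0.18 for ELAVL2 over ELAVL4, -1.35 for MSI1 over MSI2, -1.18 for CDK4 over CDK6 and -0.21 for PHF10 over DPF2. It was also -0.030 for CHD3 over CHD4, -1.29 for HMGB2 over HMGB1, -0.16 for PRPH over INA, -0.80 for MYH9 over MYH10, -0.62 for RPL22L1 over RPL22 and -0.85 for CAMK2G over CAMK2D. With the longest transcript it was -0.17 for ELAVL2, -0.070 for PHF10, -0.18 for CHD3, -0.32 for MYH9, -0.10 for DPYSL2 over CRMP1 and -0.35 for RPL22L1. With the canonical transcript, a setting added after seeing the data, it was -0.015 for FGFR1 over FGFR2, -0.19 for ELAVL2, -0.24 for MSI1, -0.22 for CHD3, -0.76 for MYH9 and -0.10 for DPYSL2. It was also -0.50 for RPL22L1 and -0.27 for CAMK2G. CAMK2G over CAMK2D, 0.058 in all 3 samples, ranged from -0.013 (without replicate 1) to 0.11 when each replicate was left out. These reversals came with the change of length, other than the last, whose cause was not tested. No paired analysis was possible because only 1 group is described. Genes at or under 3 reads cannot be told from absent ones at this depth.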
